A study of Mus musculus with 4 samples.

Results

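Vascular (non-sinusoidal) endothelial cells of mouse liver were taken as 105 of 42454 cell barcodes that passed quality filters in 4 single-cell RNA libraries. A barcode was kept when it held at least 3 unique molecular identifiers (UMIs, each standing for 1 captured RNA molecule) of Cdh5, Vwf, Plvap and Pecam1 together and at least 2 of Cdh5, Vwf and Plvap. It also had to hold no UMI of the sinusoidal genes Stab2, Clec4g, Gpr182 and Oit3, of Ptprc, the pan-leukocyte gene, of Csf1r, a macrophage gene, or of Cd3e, a T cell gene. The 4 libraries were 1 each of a Mef2d KO and a WT genotype label at 2 stages, early hepatocellular carcinoma (eHCC) and the premalignant liver before it. All were made by enzymatic dissociation of washed, minced liver and 10x Genomics 5' gene expression chemistry. The vascular barcodes numbered 8 of 9497 in KO premalignant liver, 3 of 13712 in WT premalignant liver, 38 of 8963 in KO eHCC and 56 of 10282 in WT eHCC. The sources used here do not state how Mef2d was deleted, in which cells, or how many animals gave each library. With 1 library per group there was no replicate check, so no difference below has a test, and every interval covers counting error only, at 95%.

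The liver holds several kinds of endothelium. Sinusoids are lined by a fenestrated, scavenging endothelium, whereas arteries, portal and central veins, and the vessels of tumours carry a continuous or diaphragmed lining with other genes. Cdh5 encodes VE-cadherin and Pecam1 encodes CD31, both proteins of endothelial junctions. Plvap encodes the diaphragm protein of fenestrae and caveolae, and Vwf encodes von Willebrand factor, which is stored in endothelial Weibel-Palade bodies and in platelets. Arterial identity is linked to Notch signalling, Sox17 and the connexins Gja4 and Gja5, and sprouting vessels are marked by Esm1, Apln and Angpt2.

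The libraries held 9672 to 14167 barcodes and 56458438 to 118594527 UMIs, and passing barcodes had medians of 4487, 5024.5, 7470 and 8801 UMIs (KO premalignant, WT premalignant, KO eHCC, WT eHCC). The 2 KO-labelled libraries held no less Mef2d RNA than the WT ones: it stood at 104 and 73.0 CPM (a gene's UMIs relative to all UMIs of the same barcodes, scaled to a common total) over all passing barcodes of KO and WT premalignant liver, and at 95.8 and 61.8 CPM in KO and WT eHCC. The position of the deleted sequence is not known from them, so the Mef2d counts do not check the genotype, and KO and WT below name the libraries labelled so. Among the 38 KO eHCC and 56 WT eHCC vascular barcodes Mef2d had 28 and 45 UMIs, 74.4 CPM (49.5 to 108) and 58.9 CPM (43.0 to 78.9). Free RNA of the 4 sinusoidal genes was read from T cell barcodes, of which 37.6% and 56.9% held a UMI of them in premalignant liver, against 0.617% and 1.75% at eHCC. T cell barcodes had median depths of 5088, 5352, 7452 and 6970 UMIs, and 33.7%, 42.5%, 14.1% and 15.9% of them held a UMI of the 4 vascular genes. Pairs of libraries shared 27 to 46 barcode sequences, and no vascular barcode was shared as a member.

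The members near the limits of the rule differed between stages. Exactly 3 UMIs of the 4 vascular genes were held by 3, 1, 3 and 2 members in the library order above, and 10 or more by 3, 1, 23 and 42. Just outside, 2, 4, 3 and 6 barcodes had 2 such UMIs and met all else, and 6, 8, 8 and 17 had met all else but for 1 sinusoidal UMI. The sinusoidal exclusion removed most barcodes with vascular genes in premalignant liver: without it, 2163 and 4729 barcodes of KO and WT premalignant liver would have been kept, and 63 and 143 at eHCC.

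Not every barcode chosen by the rule carried an endothelial programme. A list of 26 pan-endothelial genes was set against 7 lists of other lineages, and 83 barcodes (6, 1, 28 and 48) held more UMIs of the endothelial list than of any of these 7. These are called endothelial-dominant. The restriction was chosen after the data had been seen, and the 7 lists do not include erythroid genes. Of the 48 such WT eHCC barcodes, 2 held 4601 and 5645 erythroid UMIs beside 172 to 215 pan-endothelial ones, so erythroid genes led them, and values without them are given where they bear on a result. The other 22 were led by platelet genes (8 barcodes), stellate, fibroblast and mural cell genes (8), monocyte and macrophage genes (4), T and NK cell genes (1) or cholangiocyte and mesothelial genes (1). In KO eHCC, 7 barcodes of 776 to 1922 UMIs gave 5.41% to 7.81% of their UMIs to platelet genes. They held 29 of the 42 Vwf UMIs of that library's vascular barcodes, and no UMI of Cdh5 or Plvap. In WT eHCC, 6 barcodes of 12625 to 37569 UMIs were led by fibroblast and mural genes and held 74 Plvap UMIs but none of Cdh5 or Pecam1. Among endothelial-dominant barcodes Cdh5, which the rule used, had a UMI in 28 of 28 KO eHCC and 47 of 48 WT eHCC barcodes. In T cell barcodes of the same libraries Cdh5 had a UMI in 0.951% and 2.24%.

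**Figure D1:**
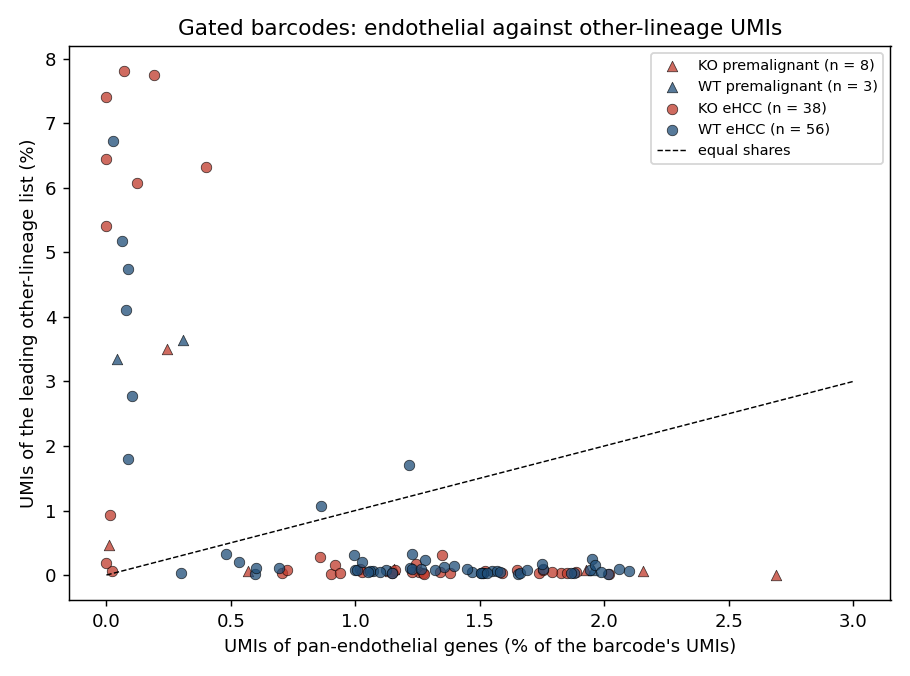
Each point is 1 of the 105 gated barcodes, with the percent of its UMIs in 26 pan-endothelial genes on the x axis and the percent in its leading list among 7 other lineages on the y axis; colour gives the genotype label and shape the stage. The 83 endothelial-dominant barcodes lie below the dashed line of equal shares, and the 7 platelet-led KO and 6 fibroblast-led WT barcodes at eHCC lie above it toward the left.

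Vascular barcodes made up 0.0842% of passing barcodes in KO premalignant liver (Clopper-Pearson interval 0.0364% to 0.166%) and 0.0219% (0.00451% to 0.0639%) in WT premalignant liver. At eHCC they made up 0.424% (0.300% to 0.581%) in the KO library and 0.545% (0.412% to 0.707%) in the WT library. The share was higher at eHCC than in premalignant liver by 2.33 on the log2 scale (1.21 to 3.64) under the KO label and by 4.64 (3.02 to 6.96) under the WT label. At eHCC the KO library's share was lower than the WT library's by a log2 ratio of -0.36 (-0.995 to 0.26), an interval that includes 0. As an alternative, barcodes were thinned to 2000 UMIs, shallower ones were left out and the rule was applied again. The ratio was then -1.08 (-1.61 to -0.57). Thinning can also remove UMIs of the genes that the rule excludes. The members became 45 of 8443 KO and 111 of 9858 WT barcodes, so the 2 ratios are of different barcode sets. The rule asks for 0 sinusoidal UMIs, and free sinusoidal RNA was far more frequent in the premalignant libraries, so the stage difference in share cannot be told apart from that background. With 2 sinusoidal UMIs allowed the stage differences were 1.02 and 2.50. Sinusoidal barcodes, gated by at least 3 UMIs of the 4 sinusoidal genes, numbered 2466 and 5187 in premalignant liver and 17 and 65 at eHCC. Of all gated endothelial barcodes, vascular ones were 0.323% and 0.0578% in premalignant liver, 69.1% (55.2% to 80.9%) in KO eHCC and 46.3% (37.2% to 55.6%) in WT eHCC.

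The few premalignant endothelial-dominant barcodes were of several vessel types, and they are given as values. In WT premalignant liver the only such barcode, of 9769 UMIs, held 191 UMIs of 18 of 22 arterial genes. Its arterial genes were led by Tm4sf1 with 69 UMIs, followed by Fbln5, an elastic fibre protein, and Ltbp4, a latent TGF-beta binding protein, with 14 each. Gja4, the gap junction protein connexin 37, had 12 UMIs, the Notch ligand Jag1 had 11, the arterial factor Sox17 had 10 and Efnb2, the arterial ephrin ligand, had 7. In KO premalignant liver a barcode of 11744 UMIs carried a lymphatic profile, with 422 UMIs over all 8 lymphatic genes. Ccl21a, the chemokine of lymphatic vessels, had 297 UMIs there, and Lyve1, the hyaluronan receptor of lymphatic and sinusoidal endothelium, had 53. Mmrn1 had 44 UMIs in it, Flt4, the receptor of the lymphatic growth factor VEGF-C, had 14 and Reln had 6.

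A pair of KO premalignant barcodes, of 5031 and 6315 UMIs, was led by capillary and angiogenic genes. Gpihbp1, which carries lipoprotein lipase to the capillary surface, had 35 and 12 UMIs in them, and Fabp4, a fatty acid carrier, had 32 and 36. Esm1, a tip cell proteoglycan, had 16 and 38 UMIs. Another KO premalignant barcode, of 930 UMIs and 22.7% mitochondrial UMIs, held 19 UMIs of sinusoidal genes that the rule did not use, among them Dnase1l3 with 4 and F8 with 3, so it went against the label. Vwf had no UMI in any of the 11 premalignant vascular barcodes. Because of these numbers, no gene was compared between stages or between genotype labels in premalignant liver.

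At eHCC, where 2 endothelial classes were present, the vascular barcodes of the WT library were set beside its 65 sinusoidal barcodes. The rule chose both classes by genes of this contrast, so the values are a description. Among 4592 genes with at least 50 UMIs in both classes together, 4.09% were at least 2-fold higher and 6.84% at least 2-fold lower in the 48 endothelial-dominant vascular barcodes. With all 56 gated barcodes the shares were 5.49% and 6.76%, and the higher genes were then led by fibroblast collagens from the 6 fibroblast-led barcodes. Of 18 arterial genes counted, 15 were at least 2-fold higher in the vascular barcodes and none lower, with a median log2 ratio of 2.21. Of 15 sinusoidal genes outside the rule, 13 were at least 2-fold lower, with a median of -3.55. Pan-endothelial genes had a median of -0.05 over 24 counted, a value that the restriction by the same list bears on, and of -0.47 over 25 with all gated barcodes.

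Sema3g, an arterial semaphorin, had 143 UMIs in the vascular and 6 in the sinusoidal barcodes, 239 against 7.62 CPM. Hey1, a Notch target factor, had 182 against 7.62 CPM, and Unc5b, a netrin receptor of tip and arterial cells, had 214 against 12.7 CPM. Igfbp3, an insulin-like growth factor binding protein, had 6218 against 399 CPM, with UMIs in 44 of 48 vascular barcodes. Stmn2, a microtubule regulator best known from neurons, had 306 UMIs against 0, at least 134-fold higher by a floor of 3 UMIs per library and class. In the other direction, Dnase1l3, a nuclease of sinusoidal cells, had 0 UMIs in the vascular barcodes and 533 in the sinusoidal ones, at least 135-fold lower. Mrc1, the mannose receptor, had 3 and 431 UMIs, a log2 ratio of -6.77 (-9.05 to -5.21), and F8, coagulation factor VIII, had 1 and 264, a log2 ratio of -7.65 (-12.96 to -5.16). In KO eHCC, where 17 barcodes were sinusoidal, Igfbp3 stood at 4776 and 512 CPM, Unc5b at 144 and 10.1 CPM and Mrc1 at 6.70 and 256 CPM in the vascular and sinusoidal classes. Stmn2 had no UMI in either class of KO eHCC. The globin genes Hba-a1, Hba-a2, Hbb-bs and Hbb-bt were also among the 15 genes most above the sinusoidal level in WT eHCC, with 50.6% to 64.4% of their vascular UMIs in 1 barcode.

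**Figure D2:**
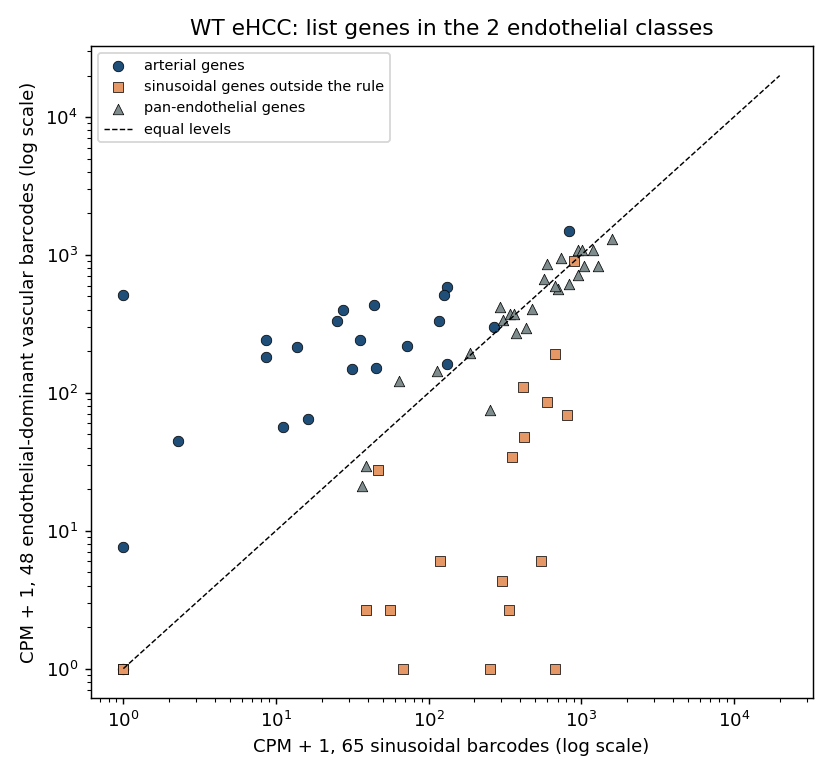
Levels of arterial, sinusoidal and pan-endothelial genes in WT eHCC, in CPM + 1 on log axes, with the 65 sinusoidal barcodes on the x axis and the 48 endothelial-dominant vascular barcodes on the y axis; each point is 1 gene, and the dashed line marks equal levels. Most arterial genes lie above the line, most sinusoidal genes below it, and pan-endothelial genes lie close to it.

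The genotype labels were compared at eHCC from UMIs summed over the vascular barcodes of each library, as the log2 ratio of KO to WT CPM. Among 3719 genes with at least 50 UMIs in both libraries together, 5.3% were at least 2-fold higher and 9.68% at least 2-fold lower in the 38 KO than in the 56 WT barcodes. In the 28 and 48 endothelial-dominant barcodes 3022 genes were counted, of which 4.47% (135 genes) were higher and 5.99% (181 genes) lower, and the median over all genes was -0.08. These barcodes had median depths of 9284.5 UMIs in KO and 12647.5 UMIs in WT. Unless thinning is named, numbers of barcodes with a UMI and medians per barcode are given at these unlike depths. With all gated barcodes the higher genes included the platelet genes Ppbp (157 and 13 UMIs, KO and WT), Pf4 (242 and 37 UMIs), Nrgn and Alox12. The lower ones included the fibroblast genes Fbn1, with 0 and 284 UMIs and at least 46.6-fold lower, and Col5a2 (6 and 376 UMIs). In the endothelial-dominant barcodes Pf4 and Alox12 changed sign, to -0.996 and -2.32, but few platelet UMIs were left there. The list of 10 platelet genes held 3 UMIs in KO and 22 in WT, and none of its genes reached the 50 UMIs needed to be counted. The values below are therefore those of the endothelial-dominant barcodes, with all gated barcodes beside them where the call differs. They include 6 of the 28 KO and 1 of the 48 WT barcodes that were called doublets, under unlike thresholds in the 2 libraries.

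The pan-endothelial genes helped choose the endothelial-dominant barcodes, and the rule's 4 vascular genes, which are not on that list, helped choose the members. The values of both are therefore a description. Of 24 pan-endothelial genes counted, none was at least 2-fold higher and 1, the transcription factor Sox18, was at least 2-fold lower in KO (415 against 864 CPM, log2 ratio -1.06), and the list's median was -0.11. Of the rule's own genes, Plvap stood at 1899 and 1416 CPM in KO and WT, and per barcode the medians were 1729 and 1430 CPM. Pecam1 stood at 1326 and 1112 CPM and Cdh5 at 1303 and 1839 CPM. Vwf had 8 UMIs in 3 of 28 KO barcodes and 165 UMIs in 27 of 48 WT barcodes, with 26.8 against 276 CPM and a log2 ratio of -3.36 (-4.60 to -2.35). Its level ran up to 473 CPM in a KO barcode, from 1 UMI among 2116, and to 2065 CPM in a WT barcode. With all gated barcodes the ratio was -0.96, since platelet-led barcodes held most of the Vwf UMIs in the KO library.

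Arterial genes were lower in the KO vascular barcodes. Of 22 arterial genes, 18 were counted, 11 were at least 2-fold lower and 1, Mgp, at least 2-fold higher, with a median log2 ratio of -1.20. With all gated barcodes 12 were lower, none was higher and the median was -1.44. Without the 2 erythroid-led WT barcodes 10 were lower, and the median was -1.24. Gja5, connexin 40, had 198 UMIs in 17 of 48 WT barcodes and 5 UMIs in 2 of 28 KO barcodes, 331 against 16.7 CPM. The median barcode held no Gja5 in either library, and the highest held 2891 CPM in WT and 1418 CPM in KO, and the groups overlapped. The log2 ratio was -4.30 (-5.94 to -3.06). Gja4, which forms gap junctions with Gja5 in arterial endothelium, stood at 508 CPM in WT, with UMIs in 26 of 48 barcodes, and at 36.8 CPM in KO, with UMIs in 5 of 28. Per barcode Gja4 ranged from 0 to 2088 CPM in WT, with a median of 53.6, and from 0 to 836 CPM in KO, with a median of 0. Its log2 ratio was -3.78 (-4.80 to -2.92).

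Sema3g had UMIs in 28 of 48 WT barcodes and 6 of 28 KO barcodes, at 239 and 33.5 CPM, a log2 ratio of -2.83 (-3.93 to -1.91). The highest Sema3g level was 1514 CPM in a WT barcode and 473 CPM in KO, in the same shallow barcode that held the highest Gja5 level. Stmn2 had 306 UMIs in 17 WT barcodes, the highest at 2951 CPM, and no UMI in any KO barcode, at least 50.9-fold lower by the floor of 3 UMIs. Sox17 stood at 217 CPM in WT and 87.1 CPM in KO (log2 ratio -1.32), with UMIs in 34 of 48 and 12 of 28 barcodes. Hey1 stood at 182 and 60.3 CPM (log2 ratio -1.59). Jag1 had 90 and 8 UMIs (log2 ratio -2.49), and Cxcl12, a chemokine of arterial endothelium, had 261 and 27 (log2 ratio -2.27). Fbln5, the elastic fibre protein named above, had 240 and 9 UMIs (log2 ratio -3.73).

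Other genes of the arterial list were nearer to equal levels. Dll4, the Notch ligand of arterial and tip cells, stood at 429 CPM in KO and 329 CPM in WT (log2 ratio 0.38), and Efnb2 at 322 and 586 CPM (log2 ratio -0.87). The highest ratio, that of Mgp, an inhibitor of calcification, rested on 1 KO barcode with 98.4% of its 125 UMIs. In T cell barcodes, where these genes mark free RNA, Gja4 had a UMI in 0.0352% of KO and 0.398% of WT barcodes and Gja5 in 0 of 5677 and 0.177%, at median depths of 7452 and 6970 UMIs. In sinusoidal barcodes Gja4 had 10 UMIs in KO and 99 in WT, a log2 ratio of -1.90 (-3.00 to -0.96), and the median over 7 arterial genes counted there was 0.17. Arterial RNA was lower in KO in other classes too: 13 of 18 counted genes were at least 2-fold lower in T cell barcodes (median -2.25), 19 of 21 in phagocyte barcodes (median -3.64) and 3 of 3 in B cell barcodes (median -3.13), with none higher. The share of all genes past 2-fold was not counted in T cell, phagocyte and B cell barcodes, so these counts have no background beside them. The part of this free RNA in the vascular difference was not tested.

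**Figure D3:**
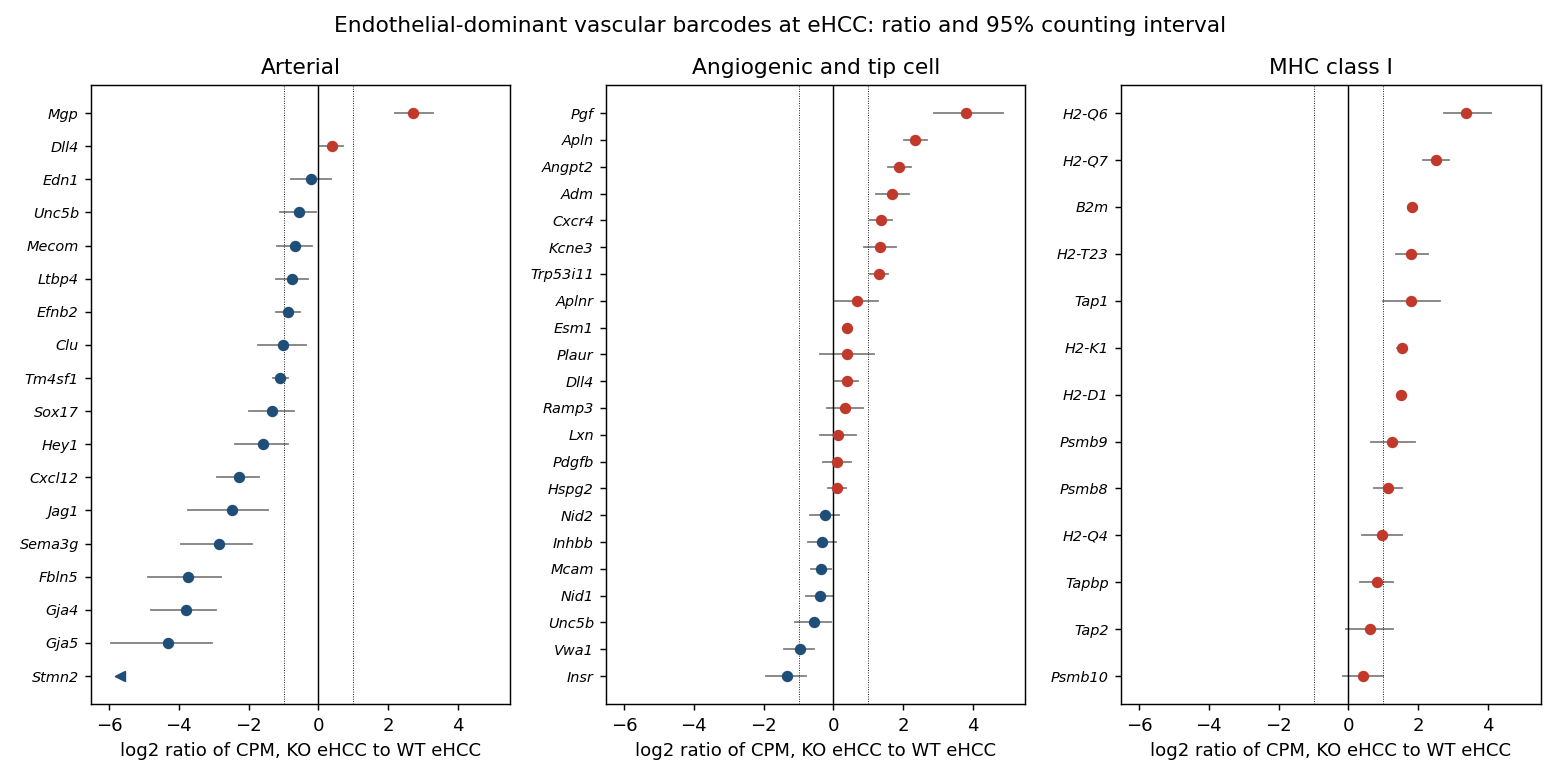
Log2 ratios of CPM, KO eHCC to WT eHCC, with 95% counting intervals for the counted genes of 3 lists in the endothelial-dominant barcodes (28 KO, 48 WT); dotted lines mark 2-fold and the triangle is a bound for Stmn2, which had no KO UMI. Of the arterial genes 11 of 18 lie beyond the lower line, and 9 of 13 MHC class I genes beyond the upper line.

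Angiogenic and tip cell genes showed no common direction but several of them were higher in KO. Of 22 counted, 7 were at least 2-fold higher and 1 lower, with a median log2 ratio of 0.36. With all gated barcodes the median was 0.38, and it changed sign to -0.18 when each barcode was weighted equally. The median over all genes was -0.26 with those weights. Pgf, the placental growth factor, had 76 UMIs in 9 KO barcodes and 11 UMIs in 3 WT barcodes (log2 ratio 3.79, 2.87 to 4.85). Apln, the apelin peptide of tip cells, had UMIs in 15 of 28 KO and 15 of 48 WT barcodes, at 898 and 177 CPM. Per barcode Apln ranged from 0 to 4537 CPM in KO, with a median of 109, and from 0 to 1964 CPM in WT, with a median of 0, and its log2 ratio was 2.34 (2.01 to 2.68). Angpt2, the ligand of the receptor Tie2 released from Weibel-Palade bodies, stood at 770 and 209 CPM (log2 ratio 1.88), and Adm, the vasodilator adrenomedullin, at 348 and 109 CPM (log2 ratio 1.68). Cxcr4, the CXCL12 receptor, had a ratio of 1.36, and the potassium channel subunit Kcne3 one of 1.33. Esm1 stood at 3316 and 2510 CPM, with UMIs in 25 of 28 and 44 of 48 barcodes and a ratio of 0.40. Insr, the insulin receptor, was the lower gene (log2 ratio -1.34). In the 17 and 65 sinusoidal barcodes Apln had 2 and 138 UMIs, a log2 ratio of -4.70 (-7.76 to -2.82), and Angpt2 had a ratio of -1.03 (-2.16 to -0.04), so both genes pointed the other way there.

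Of 10 counted VEGF and angiopoietin receptors and partners, 1 was at least 2-fold higher and 1 at least 2-fold lower in KO, with a median of -0.02. Kdr, the main VEGF receptor, stood at 787 CPM in KO and 837 CPM in WT, and Flt1 at 995 and 1084 CPM. Vegfc, a lymphatic growth factor, was lower (17 and 117 UMIs, log2 ratio -1.78). Of 13 capillary and lipid-handling genes, 2 were at least 2-fold higher in KO and none lower. Fabp5, a fatty acid binding protein, had UMIs in 24 of 28 KO barcodes, with a median of 1060 and a highest level of 5187 CPM. In WT it had UMIs in 31 of 48 barcodes, with a median of 104 and a highest level of 1998 CPM. Its log2 ratio was 2.81 (2.54 to 3.08), and the same gene had a ratio of 2.73 in sinusoidal barcodes and -0.67 in T cell barcodes. Gpihbp1 stood at 4448 and 1864 CPM (log2 ratio 1.25). Fabp4 had UMIs in every endothelial-dominant eHCC barcode, with a ratio of 0.69.

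**Figure D4:**
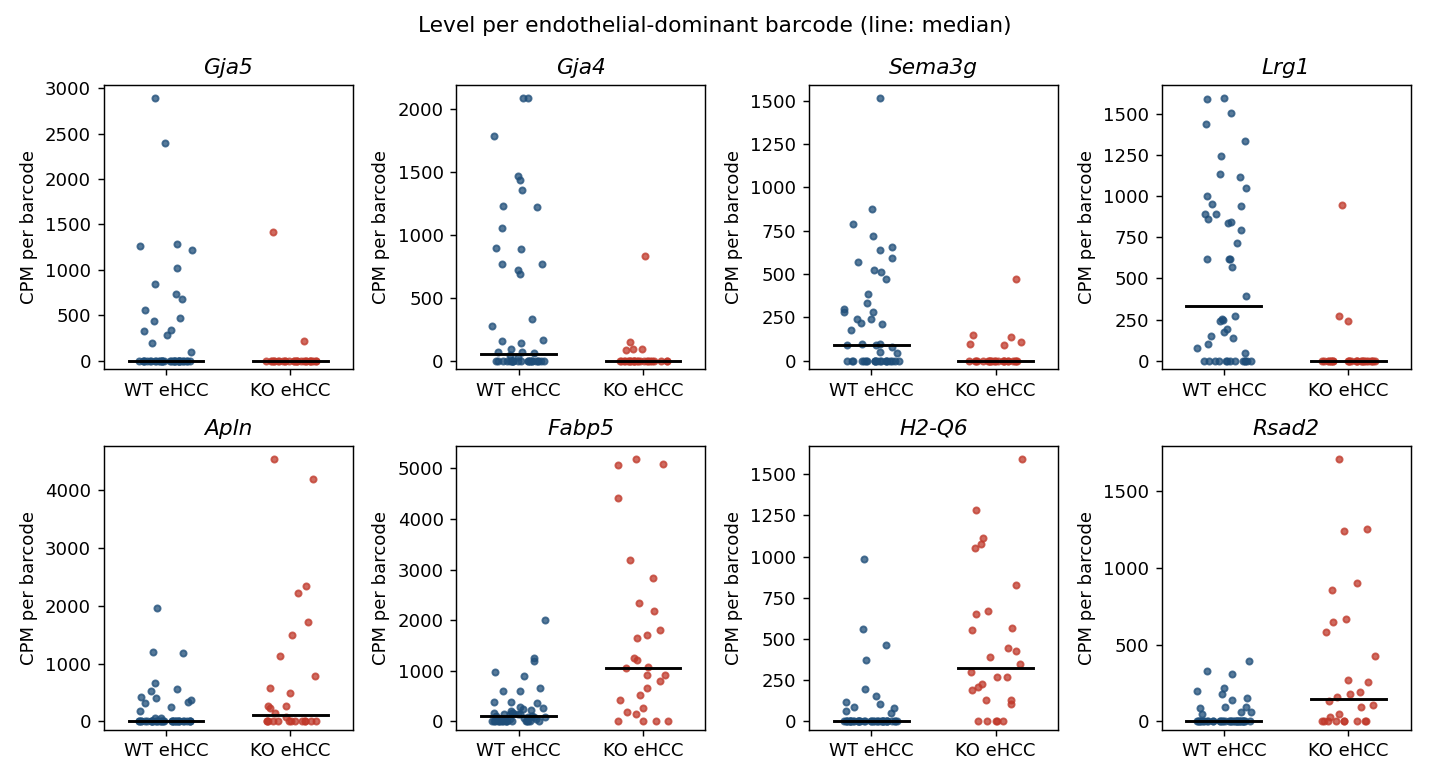
Level of 8 genes in each endothelial-dominant vascular barcode at eHCC, in CPM (linear axes), for 48 WT and 28 KO barcodes; each point is 1 barcode and the line is the median. Gja5, Gja4, Sema3g and Lrg1 have most of their high barcodes in WT, and Apln, Fabp5, H2-Q6 and Rsad2 in KO, and in each panel the ranges of the groups overlap. The highest KO points of Gja5, Sema3g and Lrg1 are the same barcode, of 2116 UMIs.

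Junction, matrix and signalling lists moved less. Of 12 junction genes counted, 2 were at least 2-fold lower, Gja4 and Gja5, and the median was -0.47. Gja1, connexin 43, had a log2 ratio of -0.50 and Cldn5, the tight junction protein claudin 5, one of -0.66. Of 17 basement membrane genes, 3 were lower and none higher, with a median of -0.32. Col18a1, the source of endostatin, had 63 and 364 UMIs (log2 ratio -1.53), whereas the main chains Col4a1 and Col4a2 had ratios of -0.09 and 0.01. Of 8 Notch pathway genes, 2 were lower and the median was -0.64, with Notch1 at 157 and 239 CPM and Notch4 at 147 and 237 CPM. Of 12 BMP and TGF-beta pathway genes 2 were lower, among them Id3, a BMP target (log2 ratio -1.04). Id1 was just inside 2-fold, at -0.94.

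Among 17 endothelial transcription factors, 3 were at least 2-fold higher and 3 lower, with a median of -0.04. Meis2, a homeobox factor, had 95 UMIs in KO and 46 in WT (log2 ratio 2.05). Of the other MEF2 family members, Mef2a stood at 218 and 215 CPM and Mef2c at 372 and 357 CPM in KO and WT. Mef2d itself had 25 and 37 UMIs, 83.7 and 61.8 CPM, a log2 ratio of 0.44 (-0.36 to 1.21). Of 11 counted genes on a list of the MEF2 family and known MEF2 targets, 4 were at least 2-fold higher in KO and none lower, with a median of 0.38. These 4 were Egr1, Nr4a1, Klf4 and Jun. All but Klf4 were also on the list of immediate-early genes, of which 7 of 15 were higher and none lower, with a median of 0.94. Egr1 had the largest ratio of that list, 2.47 (2.17 to 2.77), with UMIs in 17 of 28 KO and 13 of 48 WT barcodes. Of 13 heat shock genes 4 were higher, with a median of 0.76. Immediate-early and heat shock genes are known to respond to tissue dissociation as well as to signals in the tissue, and their part in the other differences was not tested.

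MHC class I and interferon response genes were higher in the KO vascular barcodes. Of 13 counted MHC class I and peptide loading genes, 9 were at least 2-fold higher and none lower, with a median log2 ratio of 1.50. With all gated barcodes 10 of 14 were higher and the median was 1.49, and without the 2 erythroid-led WT barcodes 9 of 13 and 1.45. B2m, the light chain of every class I molecule, stood at 4786 CPM in KO and 1351 CPM in WT, with UMIs in 28 of 28 and 47 of 48 barcodes and a log2 ratio of 1.82 (1.70 to 1.95). The classical heavy chains H2-K1 and H2-D1 had ratios of 1.52 and 1.50. H2-Q6, a non-classical heavy chain of the Qa-2 family, had UMIs in 23 of 28 KO barcodes, with a median of 326 and a highest level of 1594 CPM. In WT it had UMIs in 12 of 48 barcodes, with a median of 0 and a highest level of 985 CPM. The ratio of H2-Q6 was 3.38 (2.72 to 4.09), and that of H2-Q7 2.50. These H2-Q genes are close in sequence, and the sources used here do not say how reads shared among them were counted. Tap1, a subunit of the peptide transporter, had 38 and 22 UMIs (log2 ratio 1.79).

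Type I interferon response genes had a median log2 ratio of 1.90 over 12 counted, with 9 at least 2-fold higher and none lower. With all gated barcodes 9 of 18 were higher and the median was 1.04. Rsad2, the antiviral enzyme viperin, had UMIs in 19 of 28 KO and 14 of 48 WT barcodes, at 389 and 41.8 CPM. The highest barcode held 1710 CPM in KO and 395 CPM in WT, and the medians were 147 and 0. The log2 ratio of Rsad2 was 3.22 (2.58 to 3.90). Isg15, a ubiquitin-like modifier, stood at 579 and 98.6 CPM (log2 ratio 2.56, 2.12 to 3.01), and Irf7, the factor that amplifies the response, at 382 and 66.8 CPM (log2 ratio 2.51). Zbp1, a nucleic acid sensor, had 53 and 13 UMIs (log2 ratio 3.03). Bst2, the tetherin protein, had UMIs in 28 of 28 KO and 45 of 48 WT barcodes and a ratio of 1.38.

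Of 8 interferon-gamma response genes 6 were higher and none lower, with a median of 1.43, against 4 of 8 and 1.16 with all gated barcodes. Irgm1 and Iigp1, both immunity-related GTPases, had ratios of 2.11 and 2.02. Cxcl9, a T cell attracting chemokine, had the largest ratio of the list, 3.75, but 63.8% of its 94 KO UMIs came from 1 barcode. Among 7 counted chemokines the median was 2.54, and here too single barcodes weighed: 1 barcode held most of the KO UMIs of Ccl7 (70 and 1 UMIs), Cxcl10 (48 and 4 UMIs) and Ccl2 (58 and 20 UMIs).

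The promoters of 4 of the higher genes are shown because they carry letters of the interferon-stimulated response element (ISRE), a sequence known from promoters of interferon-induced genes. Each sequence is the 250 bases before the RefSeq gene start on GRCm38.p6, written 5′ to 3′ in the direction of the gene. Capitals mark GAAANNGAAA or its reverse complement, with overlapping matches joined.
Isg15 promoter, chr4:156200819-156201068, minus strand: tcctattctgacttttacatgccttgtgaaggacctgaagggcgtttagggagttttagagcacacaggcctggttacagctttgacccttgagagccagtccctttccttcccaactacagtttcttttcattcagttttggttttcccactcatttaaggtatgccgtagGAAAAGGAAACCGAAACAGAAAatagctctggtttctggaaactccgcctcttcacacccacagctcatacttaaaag
Rsad2 promoter, chr12:26456453-26456702, minus strand: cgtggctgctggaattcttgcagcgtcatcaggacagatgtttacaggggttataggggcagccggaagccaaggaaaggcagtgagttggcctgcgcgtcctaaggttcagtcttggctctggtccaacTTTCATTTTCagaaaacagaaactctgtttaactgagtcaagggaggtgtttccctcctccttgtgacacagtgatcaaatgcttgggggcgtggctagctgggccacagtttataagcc
Irgm1 promoter, chr11:48871421-48871670, minus strand: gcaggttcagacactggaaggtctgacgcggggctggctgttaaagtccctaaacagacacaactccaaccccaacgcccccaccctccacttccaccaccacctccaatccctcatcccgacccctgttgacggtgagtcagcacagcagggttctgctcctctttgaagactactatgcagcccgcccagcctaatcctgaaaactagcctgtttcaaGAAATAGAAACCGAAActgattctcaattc
B2m promoter, chr2:122147437-122147686, plus strand: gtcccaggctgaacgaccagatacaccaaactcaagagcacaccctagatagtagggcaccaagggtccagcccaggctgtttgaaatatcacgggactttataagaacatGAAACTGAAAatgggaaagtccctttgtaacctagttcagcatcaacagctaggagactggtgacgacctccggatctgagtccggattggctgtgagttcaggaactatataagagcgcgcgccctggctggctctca
The Isg15 window held 3 overlapping matches and the Irgm1 window 2, while those of Rsad2 and B2m held 1 each. Counted from the gene's start, the first match of Irgm1 began at -30 and that of B2m at -139. Of 27025 promoters of this length, 3.04% held the letters on either strand. Of the list members found in the RefSeq table, 8 of 18 type I interferon response genes, 10 of 13 interferon-gamma response genes and 2 of 14 MHC class I genes held them. Arterial genes held them in 3 of 17. Letters of the MEF2 site, CTANNNNTAG on either strand, were in 3.23% of all promoters and in none of the 17 arterial, 18 type I interferon, 13 interferon-gamma and 14 MHC class I promoters matched. Letters of the RBPJ site, TGGGAA on either strand, were in 21.5% of all promoters. They were in 4 of 17 arterial, 4 of 18 type I interferon, 5 of 13 interferon-gamma and 9 of 14 MHC class I promoters. A match here is a description of these letters, and no match says only that this window does not hold them.

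Interferon response genes were also higher in sinusoidal, T cell and phagocyte barcodes of the KO eHCC library, and less so in B cell barcodes. Over the type I list the median log2 ratio was 1.73 in 17 and 65 sinusoidal barcodes, 1.20 in 5677 and 4519 T cell barcodes and 1.85 in 1353 and 5470 phagocyte barcodes. In 554 and 488 B cell barcodes it was 0.17, with 2 of 23 counted genes at least 2-fold higher and none lower. The share of all genes past 2-fold was not counted in B cell barcodes. The interferon-gamma medians were 0.24 in sinusoidal, 0.69 in T cell, 1.08 in phagocyte and -0.25 in B cell barcodes, the last with 3 of 13 genes lower and none higher. Isg15 had ratios of 2.17, 2.08 and 3.04 in these classes, and Rsad2 ratios of 1.38, 2.30 and 2.48. The MHC class I median was 0.52 in sinusoidal, 0.50 in T cell, 0.85 in phagocyte and 0.26 in B cell barcodes, against 1.50 in the vascular ones. Immediate-early genes differed in direction between the classes, with medians of 0.94 in vascular, 1.38 in sinusoidal, -0.63 in T cell, -0.83 in phagocyte and -0.82 in B cell barcodes. Rsad2 had a UMI in 22.5% of KO and 5.80% of WT T cell barcodes and H2-Q6 in 93.0% and 79.8%, so RNA of these genes was not limited to the endothelium. The difference between the classes was not tested.

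**Figure D5:**
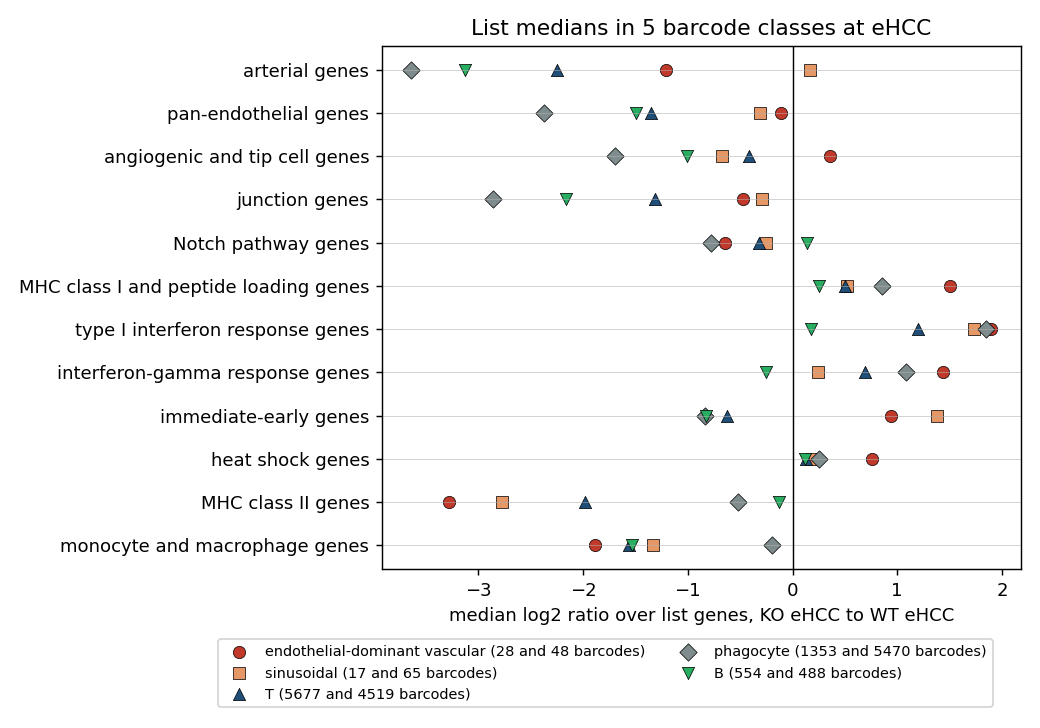
Median log2 ratio of KO to WT CPM at eHCC for 12 gene lists (y axis) in endothelial-dominant vascular, sinusoidal, T cell, phagocyte and B cell barcodes, with barcode numbers in the key (KO and WT). The type I interferon medians lie between 1.20 and 1.90 in the first 4 classes and at 0.17 in B cell barcodes, and the arterial median is -1.20 in vascular and 0.17 in sinusoidal barcodes and below -2 in the other 3 classes.

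RNA of genes known from other cells, read in the vascular barcodes, also differed between the 2 eHCC libraries. Free RNA, doublets and the barcodes' own expression were not told apart for it. Summed over a list, macrophage RNA in the endothelial-dominant barcodes was 218 CPM in KO and 904 CPM in WT, Kupffer cell RNA 26.8 and 291 CPM, hepatocyte RNA 104 and 382 CPM, T and NK cell RNA 345 and 95.2 CPM, and fibroblast RNA 16.7 and 70.2 CPM. Erythroid RNA was 1517 CPM in KO and 17251 CPM in WT, but the 2 erythroid-led WT barcodes held 10246 of the 10328 WT UMIs, and without them it was 146 CPM in WT. In T cell barcodes it was 15598 CPM in KO and 962 CPM in WT. MHC class II genes, which macrophages and B cells express, had 4 of 4 counted members at least 2-fold lower in KO and a median of -3.28, against none lower and a median of 0.55 with all gated barcodes. Cd74, the class II invariant chain, had 9 UMIs in KO and 182 in WT, and Lyz2, the macrophage lysozyme, had 19 and 229. Lyz2 had a UMI in 13 of 28 and 43 of 48 vascular barcodes and in 48.8% and 89.9% of T cell barcodes, and its log2 ratio was -2.59 in vascular and -1.98 in T cell barcodes. Ccl5, a chemokine made by T cells, had 64 and 28 UMIs and was likewise higher in T cell barcodes of KO, by 1.20, where it is not a reading of free RNA. The part of free RNA in the vascular differences was not tested.

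By the size of the ratio over all genes, with no barcode holding over 30% of a gene's UMIs in the library where it was higher, the 8 genes most above WT in KO vascular barcodes were Serpinb1a, H2-Q6, Rsad2, Zbp1, Odc1, Fabp5, Ankrd37 and Ifi27l2a. Serpinb1a, a protease inhibitor, had 59 UMIs in 9 KO barcodes and 5 UMIs in 5 WT barcodes (log2 ratio 4.56, 3.26 to 6.24). Odc1, the rate-limiting enzyme of polyamine synthesis, had UMIs in 18 of 28 KO and 12 of 48 WT barcodes (log2 ratio 2.92), and it was also higher in T cell barcodes, by 1.29. Ankrd37, a hypoxia-responsive gene, had a ratio of 2.69. Of 17 counted glycolysis and hypoxia genes 3 were higher and 1 lower, with a median of 0.16. The lower gene was Epas1, the hypoxia factor HIF-2 alpha of endothelium, at 261 and 717 CPM (log2 ratio -1.46).

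The 8 genes most below WT were Stmn2, Fbln2, Lrg1, Sncg, Gja5, St8sia6, Ms4a6d and Gja4. Lrg1, a secreted glycoprotein that modulates TGF-beta signalling in vessels, had UMIs in 35 of 48 WT barcodes, with a median of 332 and a highest level of 1597 CPM. In KO it had UMIs in 3 of 28 barcodes, with a median of 0 and a highest level of 945 CPM, and its log2 ratio was -4.57 (-5.79 to -3.58). The 945 CPM stood in the KO barcode of 2116 UMIs that also had the highest Gja5 and Sema3g levels. Lrg1 was also lower in KO sinusoidal barcodes, by a ratio of -1.32, and in T cell barcodes, by -2.85, at 0.617% and 4.25% with a UMI. Fbln2, a matrix protein of arterial and valve endothelium, had 3 UMIs in KO and 219 in WT (log2 ratio -5.19, -7.47 to -3.62). Sncg, a synuclein, had UMIs in 30 of 48 WT and 2 of 28 KO barcodes (log2 ratio -4.52, -7.59 to -2.63). Ms4a6d, known as a macrophage gene, had UMIs in 33 of 48 WT and 3 of 28 KO barcodes (log2 ratio -3.90), and in 20.8% and 20.9% of T cell barcodes of WT and KO. In phagocytes its log2 ratio was -0.49.

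Vessel subsets were read from barcodes thinned to 2000 UMIs, leaving out 3 KO and 5 WT endothelial-dominant barcodes that were shallower. At least 2 UMIs of 8 arterial genes were held by 11 of 25 KO barcodes, 44.0% (24.4% to 65.1%), and by 33 of 43 WT barcodes, 76.7% (61.4% to 88.2%), with overlapping intervals. Without thinning the shares were 82.1% and 87.5%. At least 2 UMIs of 7 angiogenic genes were held by 20 of 25 and 38 of 43, 80.0% and 88.4%. Arterial and angiogenic genes were held together by 7 KO and 29 WT barcodes, angiogenic genes without arterial ones by 13 and 9. Venous genes reached 2 UMIs in 3 of 25 and 4 of 43 barcodes, and lymphatic genes in none. These classes are ranges on a count and not cell types. Genes of S and G2/M phase reached 3 UMIs in 11 of 25 KO barcodes, 44.0% (24.4% to 65.1%), and in 11 of 43 WT barcodes, 25.6% (13.5% to 41.2%), with overlapping intervals, and Mki67 or Top2a had a UMI in 1 barcode of each library, so no cycling was read from them.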

How the data were processed

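The authors deposited raw UMI counts per gene and barcode for each of the 4 libraries, where the file headers name Cell Ranger 3.0.1. Per the submitters' processing notes, bcl2fastq 2.20.0 was among the tools; mm10 and GRCh38 are both listed as builds, without their roles. From these counts, barcodes needed 500 UMIs and 300 genes or more and a mitochondrial share of 25% or less before the rule was applied; counts of 35 duplicated symbols were summed. Among passing barcodes, sinusoidal ones had at least 3 UMIs of the 4 sinusoidal genes and none of Ptprc, Csf1r and Cd3e, T cell ones at least 2 UMIs of Cd3d, Cd3e and Cd3g, phagocytes at least 5 of Csf1r, Lyz2, Cd68 and Fcgr1, and B cell ones at least 3 of Cd79a, Cd79b and Ms4a1 and none of Cd3e. UMIs were summed over the barcodes of a class and library and scaled to CPM. Counts have exact Poisson intervals, shares Clopper-Pearson intervals and ratios conditional binomial intervals, at 95%; PCR copies were already collapsed by UMI, and the intervals cover counting error only. A gene was counted with at least 50 UMIs in both libraries together, and a list's median given for at least 3 such genes. A library with 0 UMIs was set to a floor of 3 for a fold.

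Named genes were members of 43 lists with the largest UMI sums or ratios, and the 8 highest and 8 lowest ratios with an interval on 1 side of 0, at least 10 barcodes with the gene (5 in libraries under 50) and no barcode over 30%. The members and lists were chosen with earlier results of these data known. Doublets were called with scrublet and kept, and leaving them out was an alternative. Its own threshold marked 0.0112% of KO eHCC barcodes, so a top share was used there. This called 6.48% of passing barcodes in KO eHCC, against 1.82% by the own threshold in WT eHCC. Among endothelial-dominant barcodes 6 of 28 in KO eHCC and 1 of 48 in WT eHCC were called. The calculation was run on simulated counts for 3022 genes of the KO eHCC and WT eHCC comparison. The intervals held the true value for 95.9% of unchanged genes, 0.602% of unchanged genes passed 2-fold, and all genes changed 4-fold passed. These counts were drawn with counting error alone, as the intervals assume, and without spread between barcodes, animals or libraries. They check the calculation and give no rate of false calls for the real data. Promoters were matched by symbol in a RefSeq table. Python 3.11.15, numpy 2.4.6, scipy 1.17.1, pandas 2.3.3, scanpy 1.11.5 and matplotlib 3.10.9 were used.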

Additional observations from a re-analysis of the deposited data

Results flagged for a closer look

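The share of vascular barcodes among passing barcodes pointed in opposite directions under the same contrast at the 2 stages. Its log2 ratio of KO to WT was 1.94 in premalignant liver, from 8 and 3 barcodes, and -0.36 at eHCC, from 38 and 56 barcodes. Both intervals include 0, and the difference between the stages was not tested. In endothelial-dominant barcodes the premalignant ratio was 3.11 (0.07 to 8.64), an interval above 0 that rests on 6 KO barcodes and 1 WT barcode. At eHCC the ratio of these barcodes was -0.58 (-1.31 to 0.12). After thinning to 2000 UMIs, with the rule applied again and 14 KO and 19 WT members, the premalignant ratio was 0.18. Among gated endothelial barcodes the ratios were 2.48 and 0.58, in the same direction.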

How the results depend on the processing

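No paired analysis was possible because each group had 1 library. The log2 ratio of the KO to the WT share at eHCC moved from -0.36 to -1.08 after thinning to 2000 UMIs. The rule was applied again to the thinned counts, so the members changed too, to 45 in KO and 111 in WT. With up to 2 sinusoidal UMIs allowed, an alternative added after the data had been seen, the eHCC to premalignant ratio of the share of passing barcodes was 1.02 (KO) and 2.50 (WT), and for WT it was 2.86 after thinning. Of gated endothelial barcodes it was 6.20 (KO) and 7.20 (WT) with 2 sinusoidal UMIs allowed, and for WT 7.97 with 1 allowed and 7.69 after thinning. The 197 genes at least 2-fold higher in all KO eHCC vascular barcodes became 48 after thinning, 106 without the barcode richest in each gene, 484 with a minimum of 20 UMIs and 1190 with none. The 360 lower genes became 61, 181 in endothelial-dominant barcodes, 577 with equal barcode weights, 846 and 1537 under the same minimums. The chemokine median reversed to -0.0186 with no gene minimum, and the monocyte and macrophage median to 0.64 with equal weights and 0.38 with no minimum. In endothelial-dominant barcodes, also an added alternative and one with 3 KO and 22 WT UMIs of the platelet list, Alox12 reversed to -2.32 and Pf4 to -0.996. Without the 2 erythroid-led ones, a further added alternative, they were at -2.41 and -1.09, the erythroid median reversed to 3.45, 127 genes were higher and 180 lower, and 180 rather than 273 genes were higher than in sinusoidal barcodes. Col5a2 reversed to 0.0395 after thinning. The cause was not tested beyond the different barcodes, UMIs or genes that each alternative leaves. Of the other alternatives, 418 list medians and 237 named gene ratios stayed within the set limits and 49 and 49 moved; 9 of these medians, 5 of them of MHC class II genes (0.55 to between -3.36 and -0.13), and 0 of these ratios changed sign.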

Other observations

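Sex-linked genes, which belong to no comparison above, gave no female RNA in the endothelial-dominant eHCC barcodes. Xist, the RNA of the inactive X chromosome, had no UMI in either library, and the Y-linked gene Ddx3y had 29 UMIs in KO and 56 in WT. Eif2s3y, also Y-linked, had 6 UMIs in 5 of 28 KO barcodes and 41 in 24 of 48 WT barcodes.

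Across endothelial-dominant barcodes the summed arterial and angiogenic levels showed little relation, with a Spearman rho of -0.19 over 28 KO and -0.04 over 48 WT barcodes at eHCC. The barcodes of a library share its free RNA and its depth, so this is a description with no test.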
